A study of Mus musculus with 37 samples.

Results

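Galc and Serpina3n are genes of mouse chromosome 12. The brightest probe set of each differed widely in signal among temporal lobe arrays of C57 mice and hardly at all among those of 129. The other probe sets of Galc did not show this, and its brightest lay below the filter on low values in every 129 array. Both genes were chosen by their signals, the level of each array in C57 against the narrow range in 129. Their levels in the strains and their spread are therefore described here without a test. All probe sets with Galc or Serpina3n as their only gene symbol were taken, which gave 4 probe sets of 2 genes out of 45101 probe sets and 18193 genes. Galc had 3 probe sets and Serpina3n had 1, and no probe set with several symbols held either gene.

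The series compared mice lacking Wfs1 (KO) with wild-type mice (WT), with the temporal lobe hybridised to Affymetrix arrays. There were 9 C57 KO, 9 C57 WT, 10 129 KO and 9 129 WT arrays, and the strain is C57 or 129SV in the labels and C57B6 or 129S6 in the series' design. The labels give no age, sex, litter, allele or number of backcrosses, and they leave unsaid whether each array stands for a separate animal. The p-values therefore cover the spread between the samples, which may in part be technical. Wfs1 itself, which encodes an endoplasmic reticulum protein lost in Wolfram syndrome, had a log2 signal of 3.03 ± 0.26 in C57 KO and 9.32 ± 0.17 in C57 WT, and of 3.11 ± 0.28 in 129 KO and 9.33 ± 0.12 in 129 WT (SD). Signals below are log2 values of the deposited table, and arrays are named by the sample number in their title.

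Galc encodes galactosylceramidase, the lysosomal enzyme that removes galactose from galactosylceramide, a main lipid of myelin, and from the toxic lipid psychosine. Its loss causes Krabbe disease in humans and the twitcher phenotype in mice. Serpina3n encodes a secreted inhibitor of serine proteases, a mouse relative of human antichymotrypsin. It belongs to a cluster of near copies in the mouse and is known as a marker of reactive astrocytes and as an acute phase gene.

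The promoters of both genes are shown because both lie on chromosome 12. That of Serpina3c is shown beside them as a near copy of the Serpina3n promoter in the same cluster. Likeness of promoters does not show which transcripts a probe set binds. The sequences are those of RefSeq for build GRCm38.p6, each 300 bases long, with 250 bases before the gene's start and 50 after it. Capitals mark the motifs found, and none of them overlap. The Galc promoter lies at chr12:98259410-98259709 on the minus strand, that of Serpina3n at chr12:104406458-104406757 on the plus strand and that of Serpina3c at chr12:104153823-104154122 on the minus strand.
Galc: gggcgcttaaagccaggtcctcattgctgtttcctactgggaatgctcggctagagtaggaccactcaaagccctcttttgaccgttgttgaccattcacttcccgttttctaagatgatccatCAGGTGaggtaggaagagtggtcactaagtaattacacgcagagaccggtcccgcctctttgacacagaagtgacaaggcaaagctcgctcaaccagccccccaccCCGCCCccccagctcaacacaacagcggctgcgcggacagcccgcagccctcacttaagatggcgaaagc
Serpina3n: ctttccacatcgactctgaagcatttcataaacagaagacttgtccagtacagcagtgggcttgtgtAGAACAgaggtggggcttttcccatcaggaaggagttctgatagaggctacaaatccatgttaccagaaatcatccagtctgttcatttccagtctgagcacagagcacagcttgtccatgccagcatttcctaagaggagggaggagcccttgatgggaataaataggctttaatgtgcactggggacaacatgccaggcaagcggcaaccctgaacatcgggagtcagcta
Serpina3c: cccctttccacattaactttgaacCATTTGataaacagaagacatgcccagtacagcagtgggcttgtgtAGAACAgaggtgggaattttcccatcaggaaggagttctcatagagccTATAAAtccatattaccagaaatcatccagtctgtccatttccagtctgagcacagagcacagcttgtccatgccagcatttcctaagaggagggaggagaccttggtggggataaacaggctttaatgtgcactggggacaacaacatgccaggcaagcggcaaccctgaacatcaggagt
The motifs searched, on both strands, were the STAT site TTCNNNGAA, the glucocorticoid receptor motif AGAACA, the GC box GGGCGG, the TATA box TATAAA and the E-box CANNTG.

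In the Galc promoter a GC box was found on the opposite strand, where the printed strand reads CCGCCC at position -20, and an E-box CAGGTG at position -126, counted back from the gene's start. The Serpina3n promoter held AGAACA at position -183 and none of the other motifs. Among 32851 promoters of the same length, AGAACA was present in 19.0%, GGGCGG in 35.7%, TATAAA in 13.6%, TTCNNNGAA in 8.30% and CANNTG in 72.3%. These matches are common and describe the letters of the window alone.

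The Serpina3c promoter matched that of Serpina3n at 275 of 300 bases, or 91.7%. It held AGAACA at position -180, and TATAAA at position -132 and CATTTG at position -226. Promoters of the other Serpina3 genes in the table matched Serpina3n at 53.7% to 72.3% of bases. Serpina3c had no probe set with its symbol alone on the array, and whether the Serpina3n probe set also binds transcripts of near copies was not tested.

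The brightest probe set of Galc, 1452907_at, gave 7.05, 2.60, 5.62, 6.72, 5.84, 5.83, 6.75, 6.43 and 5.70 in C57 KO arrays 1, 2, 3, 5, 7, 8, 9, 10 and 17. It gave 6.97, 6.76, 2.85, 5.79, 5.71, 6.62, 5.26, 6.58 and 5.74 in C57 WT arrays 25, 26, 28, 29, 33, 34, 37, 40 and 42. In 129 the lowest, median and highest signals were 2.63, 3.03 and 3.34 in the 10 KO arrays and 2.65, 2.97 and 3.14 in the 9 WT arrays. Thus 16 of the 18 C57 arrays lay above every 129 array, C57 WT array 28 lay within the 129 range and C57 KO array 2 lay just below it.

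Galc averaged 5.84 ± 1.32 in C57 KO and 3.00 ± 0.22 in 129 KO, a difference of 2.84 (SE 0.45) or 7.18-fold in signal. It averaged 5.81 ± 1.25 in C57 WT and 2.95 ± 0.15 in 129 WT, a difference of 2.86 (SE 0.42) or 7.28-fold. Every 129 array, and C57 arrays 2 and 28, lay below the log2 signal of 3.6 used as the filter on low values, so the fold is one of signal, and by this probe set the level in 129 was not separated from background. Probe set 1420547_at, described below, was at or above 3.62 in every 129 array. In whole tissue, fewer cells of a type and less RNA per cell cannot be told apart, here or in the results that follow.

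The Serpina3n probe set, 1419100_at, gave 5.42, 8.49, 7.59, 7.50, 5.61, 7.43, 5.22, 5.20 and 7.77 in the C57 KO arrays, in the order of sample numbers used for Galc. It gave 5.39, 5.08, 8.43, 7.64, 7.55, 7.38, 7.46, 5.04 and 7.54 in the C57 WT arrays. In 129 the lowest, median and highest signals were 8.10, 8.27 and 8.64 in KO and 7.98, 8.24 and 8.42 in WT. The direction was opposite to that of Galc, as 16 C57 arrays lay below every 129 array, and the remaining C57 arrays, 2 and 28, lay within the 129 range.

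Serpina3n averaged 6.69 ± 1.30 in C57 KO and 8.31 ± 0.16 in 129 KO, a difference of -1.62 (SE 0.44) or 3.07-fold. It averaged 6.83 ± 1.29 in C57 WT and 8.22 ± 0.14 in 129 WT, a difference of -1.39 (SE 0.43) or 2.61-fold. All its signals were above the filter, so Serpina3n was measured in both strains, at clearly lower levels in some C57 arrays than in others.

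**Figure D1:**
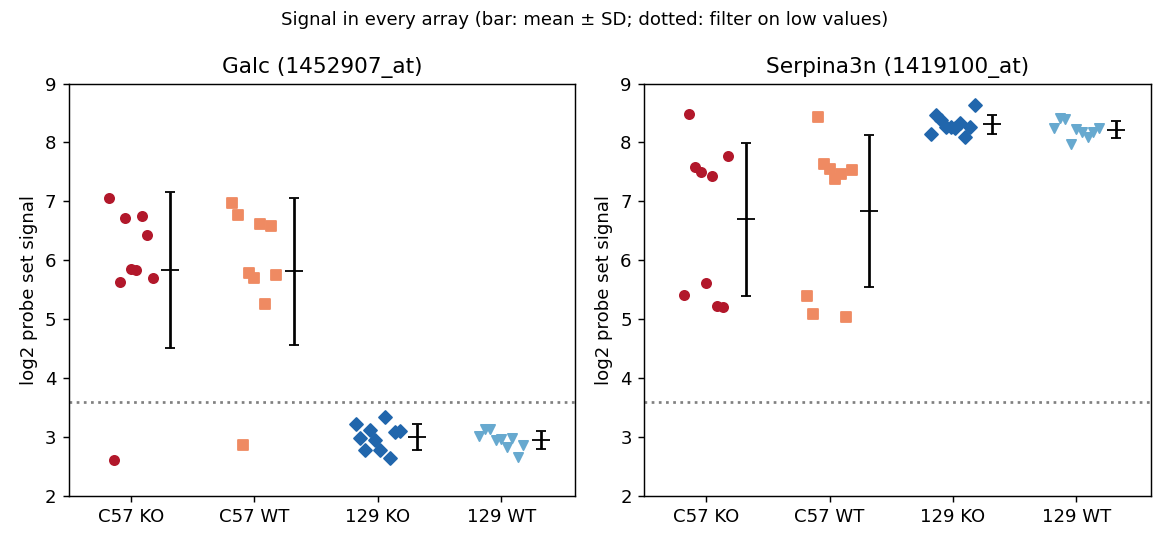
Log2 signal (vertical axis) of Galc and Serpina3n in every array of the 4 groups, with 1 point per array, the mean ± SD beside the points and the filter of 3.6 as a dotted line. The C57 points of both genes fall at separate levels, with C57 KO array 2 and C57 WT array 28 at the level of 129, and the 129 points stay within 2.63 to 3.34 for Galc and 7.98 to 8.64 for Serpina3n.

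The C57 signals did not spread evenly, and they are described here as 3 levels, split at the 2 widest gaps of each gene. For Galc, 2 arrays lay at 2.60 to 2.85, 8 at 5.26 to 5.84 and 8 at 6.43 to 7.05, with gaps of 2.41 and 0.58 between the levels. For Serpina3n, 7 arrays lay at 5.04 to 5.61, 9 at 7.38 to 7.77 and 2 at 8.43 to 8.49, with gaps of 1.77 and 0.66. The widest gap among all 19 arrays of 129 was 0.12 for Galc and 0.18 for Serpina3n. Narrower gaps within the C57 levels also passed these values, at 0.36 and 0.25 for Galc and 0.20 for Serpina3n. The levels were drawn from these values, and no test of their number was made.

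KO and WT arrays were found at every level. The Galc levels held 1, 4 and 4 KO arrays from low to high and as many WT arrays. The Serpina3n levels held 4, 4 and 1 KO arrays and 3, 5 and 1 WT arrays. As a sign of RNA quality, the actin control signals of the 3' and 5' ends differed by 1.49 to 1.52 in the 2 arrays low for Galc and high for Serpina3n. They differed by 0.95 to 1.24 at the middle level of both genes, by 1.04 to 1.94 at the high level of Galc and by 1.12 to 1.94 at the low level of Serpina3n. The middle arrays thus had the lowest values, with some overlap, and the part of RNA quality in the levels was not tested.

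The levels of both genes ran against each other, array by array. Of the 18 C57 arrays, 15 stood at opposite levels, with 6 high for Galc and low for Serpina3n, 7 in the middle for both and 2 low for Galc and high for Serpina3n. The exceptions were C57 KO array 5 and C57 WT array 34, high for Galc and in the middle for Serpina3n, and C57 KO array 7, in the middle for Galc and low for Serpina3n. Over the deviations of the 18 arrays from their group means, Pearson's r between both genes was -0.70 and Spearman's rho was -0.74. Without C57 KO array 2 and C57 WT array 28, r was -0.69 over 16 arrays. In 129, where both genes hardly varied, r was 0.33 over 19 arrays. The Galc signals there all lay below the filter, so this value says nothing about the pair in 129.

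The arrays also fell into sets of 19 and 18 that follow the sample number within each group and were found from the data, not from the labels. Set 1 held 5 C57 KO and 4 C57 WT arrays, and set 2 held 4 and 5. Within the C57 arrays of set 1 the correlation between both genes was -0.78 (rho -0.85, 9 arrays), and within those of set 2 it was -0.74 (rho -0.72, 9 arrays). Both arrays low for Galc belonged to set 1, whereas the middle level had 3 and 5 arrays and the high level 4 and 4 arrays in sets 1 and 2. Levels other than the lowest of Galc and the highest of Serpina3n were thus present in both sets.

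**Figure D2:**
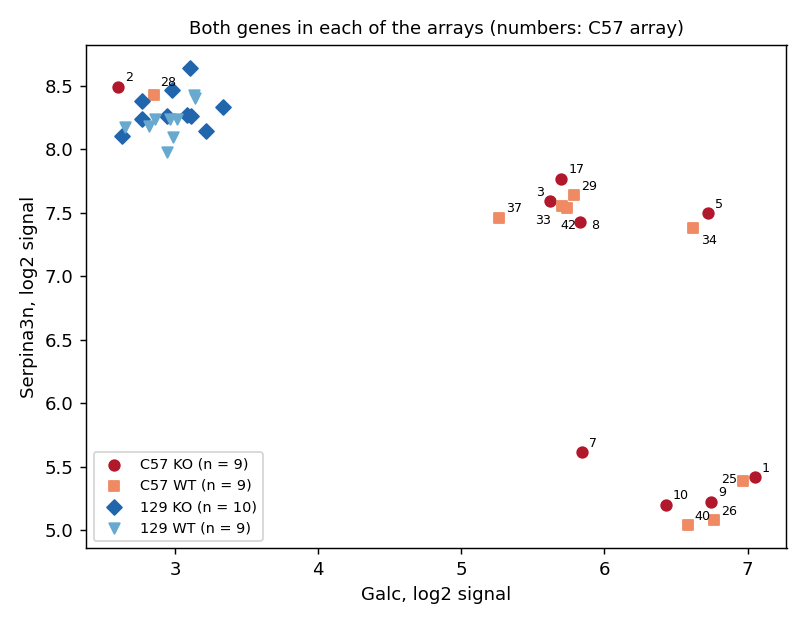
Log2 signal of Galc (horizontal axis) and Serpina3n (vertical axis) in all 37 arrays, with the sample number beside each C57 array. C57 KO array 2 and C57 WT array 28 lie among the 129 arrays, 7 C57 arrays lie in the middle of both axes, and 6 lie high for Galc and low for Serpina3n.

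C57 KO array 2 and C57 WT array 28 stood with 129 for both genes, so their labels were checked on other genes. Apart from Galc and Serpina3n, 125 genes were called between the strains in both KO and WT. In C57 KO array 2, 40 of these 125 genes were nearer to the 129 mean than to the mean of the other C57 arrays of its group, and in C57 WT array 28, 21 were. The remaining 16 C57 arrays had 12 to 41 such genes, with a median of 20.5. Within that range, C57 KO array 2 lay near the top, toward 129, and C57 WT array 28 near the median. Both arrays stood with C57 for most of these genes. The 125 genes were called with both arrays counted as C57, which favours this outcome. Of the 10 on chromosome 12, 4 were nearer to 129 in C57 KO array 2 and 3 in C57 WT array 28. The other C57 arrays had 0 to 7. Without them, Galc differed by 3.25 between C57 KO and 129 KO and by 3.23 between C57 WT and 129 WT, with an SD of 0.56 in C57 KO and 0.62 in C57 WT. Serpina3n then differed by -1.84 and -1.58, with an SD of 1.19 in C57 KO and 1.22 in C57 WT.

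Few genes were as uneven in C57. The SD within groups was 1.29 in C57 and 0.19 in 129 for Galc, and 1.30 in C57 and 0.15 in 129 for Serpina3n. Over all 13078 genes tested, the median SD was 0.15 in C57 and 0.17 in 129. By the SD in C57, Serpina3n ranked 7 and Galc 8, and by the ratio of both SDs Serpina3n ranked 1 with 8.68 and Galc ranked 6 with 6.73. An SD of at least 1 in C57 was reached by 16 genes, of which 10 had an SD under 0.25 in 129, and 4 genes reached an SD of 1 in 129. Ugt8a, the enzyme that makes galactosylceramide, had an SD of 0.32 in C57 and 0.22 in 129, and Gfap, the filament protein of astrocytes, 0.21 in both. Stat3, a transcription factor of the acute phase response, had an SD of 0.19 in C57 and 0.40 in 129. Lcn2, a reactive astrocyte gene below the filter, had an SD of 1.06 in C57 KO and 0.36 in C57 WT, and of 0.16 in 129 KO and 0.14 in 129 WT.

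**Figure D3:**
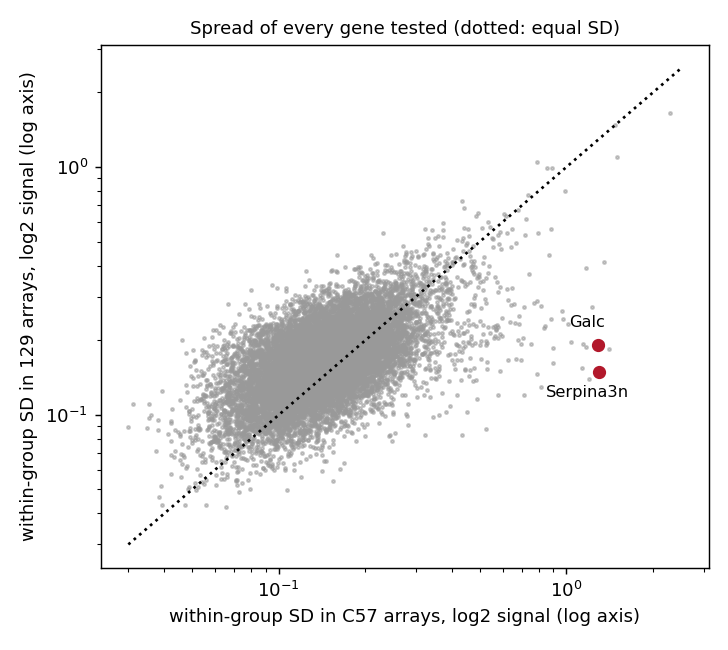
SD within groups in C57 arrays (horizontal log axis) against that in 129 arrays (vertical log axis) for the 13078 genes tested, with a dotted line at equal SD. Galc (1.29 and 0.19) and Serpina3n (1.30 and 0.15) lie at the right edge and far below the line. The Galc signals lay below the filter in every 129 array.

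The 3 probe sets of Galc did not show the same pattern. Probe set 1420547_at averaged 3.82 ± 0.27 in C57 KO, 3.78 ± 0.29 in C57 WT, 4.10 ± 0.13 in 129 KO and 4.02 ± 0.22 in 129 WT, so that C57 was below 129 by -0.27 in KO and by -0.24 in WT. Probe set 1449900_at averaged 1.91 ± 0.12 in C57 KO, 1.94 ± 0.10 in C57 WT, 2.03 ± 0.17 in 129 KO and 1.99 ± 0.12 in 129 WT, with differences of -0.12 and -0.05. Both thus had the opposite sign to the brightest probe set, and the second lay far below the filter in every group. Over the 18 C57 arrays, their correlation with the brightest probe set was -0.37 (rho -0.44) for 1420547_at and 0.27 (rho 0.12) for 1449900_at. The statements on Galc here hold for 1452907_at alone, and which transcript each probe set reads was not tested.

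**Figure D4:**
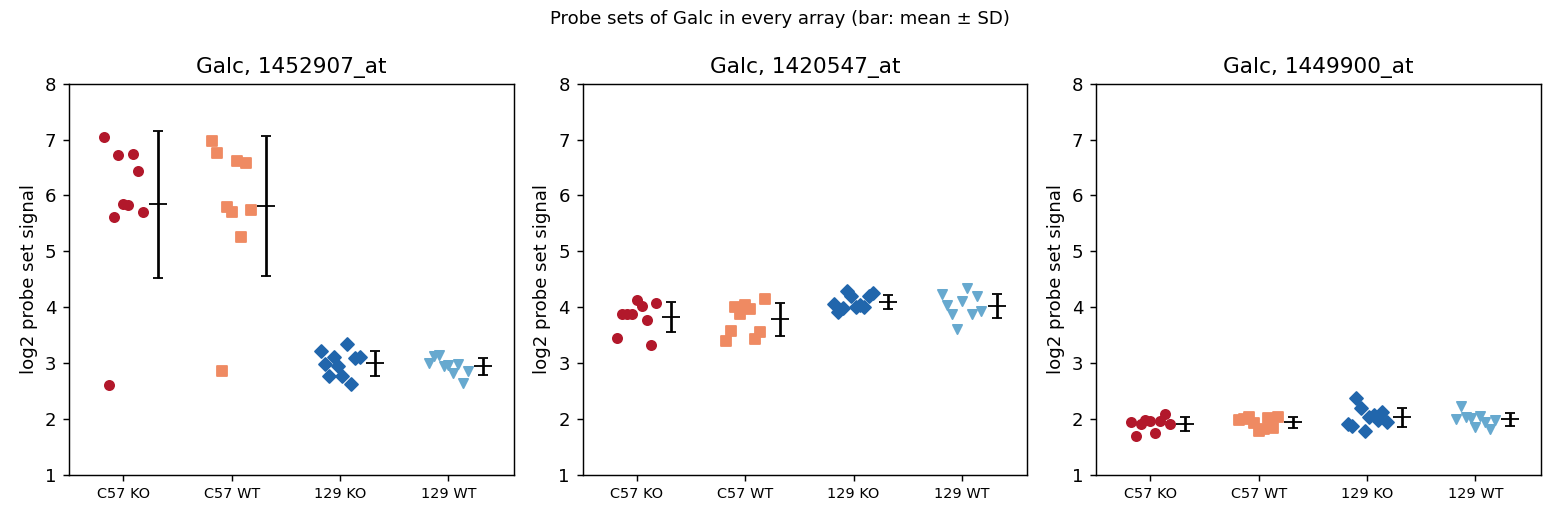
Log2 signal (vertical axis) of the 3 Galc probe sets in every array of the 4 groups, with the mean ± SD beside the points. The levels of C57 arrays at 2.60 to 7.05 appear in 1452907_at, while 1420547_at stays near 4 and 1449900_at near 2 in all groups.

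KO and WT were then compared within each strain for both genes, a contrast whose direction the choice of genes did not use. The choice did go by their wide spread in C57, which enters the error of the comparison in C57. A small difference could thus hardly be called there, and the lack of a call is in part set by the choice. Galc differed between C57 KO and C57 WT by 0.03 (SE 0.40, 95% interval -0.77 to 0.83; limma, adjusted p = 0.995 over 13078 genes). Serpina3n differed by -0.14 (SE 0.40, 95% interval -0.94 to 0.66; limma, adjusted p = 0.990). Neither of the 2 genes was called, against 0.107% of all genes tested in this comparison, or 14 genes. These errors share the spread of all 4 groups, and fitted on the C57 arrays alone the SE was 0.54 for both genes. The intervals do not show that KO and WT are alike.

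Between 129 KO and 129 WT, Serpina3n differed by 0.09 (SE 0.39, 95% interval -0.69 to 0.87; limma, adjusted p = 1.00). It was not called, against 0.00765% of genes, or 1 gene. Fitted on the 129 arrays alone, its difference had an SE of 0.07 and the limma adjusted p stayed at 1.00. For Galc the difference was 0.05, but its probe set 1452907_at lay below the filter in all 19 arrays of 129 and was tested only through its level in C57, so this value says nothing about an effect of Wfs1 loss in 129.

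The KO effect in C57 minus that in 129 was -0.02 for Galc (SE 0.55, 95% interval -1.14 to 1.10) and -0.23 for Serpina3n (SE 0.55, 95% interval -1.35 to 0.89), each with a limma adjusted p of 0.999. Neither was called, against 0.0153% of genes, or 2 genes, and for Galc the limit of its signal in 129 holds here too. Exact 2-sided permutation tests on each of the 4 probe sets in each strain gave p-values of 0.205 to 0.951 and Benjamini-Hochberg values of 0.923 to 0.951 over 8 tests. No effect of Wfs1 loss was detected on Serpina3n in either strain or on Galc in C57.

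Genes whose signal followed Galc or Serpina3n among the C57 arrays were named by Pearson's r over the deviations of the 18 arrays from their group means, the 6 highest and the 4 lowest for each. These are descriptions over arrays that share their tissue, sets and normalization. Over the 13077 other genes, percentiles 1 and 99 of r were -0.54 and 0.43 for Galc and -0.51 and 0.49 for Serpina3n. A size of at least 0.7 was reached by 15 genes for Galc and by 14 for Serpina3n.

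Highest with Galc was Trip11, which encodes a golgin of the Golgi apparatus, at 0.75 (rho 0.90, and 0.83 without C57 arrays 2 and 28). Tmem121, a membrane protein gene, followed at 0.74 (rho 0.58, and 0.37 without those arrays), Maf, a transcription factor, at 0.74, Rpp14 at 0.73, Dmrta2 at 0.67 and H2aj, a histone gene, at 0.67. Lowest were Rtp4, an interferon-induced gene, at -0.79, Fam20b, a xylose kinase, at -0.76, Ccdc120 at -0.76 and Mrpl39, of the mitochondrial ribosome, at -0.74. Several of these leaned on C57 arrays 2 and 28, since without them r was 0.32 for Dmrta2, -0.32 for Rtp4, -0.18 for Fam20b and -0.32 for Ccdc120.

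Highest with Serpina3n was Esyt2, which encodes an extended synaptotagmin at contacts of endoplasmic reticulum and plasma membrane, at 0.84 (rho 0.75). It was followed by Caml at 0.72, Gzmk, which encodes granzyme K, at 0.71, Gorasp1, a Golgi stacking protein, at 0.70, Coq3, an enzyme of coenzyme Q synthesis, at 0.69 and Ttc30a1 at 0.67. Lowest were H2aj at -0.86, Trip11 at -0.82, Slc45a4 at -0.78 and Erf, a transcriptional repressor, at -0.76. Trip11 and H2aj were thus named for both genes, with opposite signs. In 129, where both genes hardly varied, r was -0.14 for Trip11 with Galc and 0.20 for Esyt2 with Serpina3n. Over all the named genes, r in 129 ran from -0.44 for Maf to 0.55 for Rtp4 with Galc. The Galc signal lay below the filter in every 129 array, so its r values there are not separated from background. With Serpina3n it ran from -0.72 for Erf, near its value in C57, to 0.50 for Caml.

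Of the 10 genes named for each, 2 lay on chromosome 12 (Trip11 and Tmem121 for Galc, Esyt2 and Trip11 for Serpina3n), a chromosome that held 474 of 13007 tested genes with a known place, or 3.64%. In the RefSeq order of chromosome 12, 137 annotated genes, 42 of them tested, lie between Galc and Serpina3n. Among the 474 tested genes Galc has place 333, Trip11 352, Serpina3n 376, Tmem121 459 and Esyt2 465. All 5 genes, Galc and Serpina3n included, thus lie at places 333 to 465 of 474. Whether named genes were more frequent there than elsewhere was not tested.

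Of the named genes, Tmem121 was also called higher in C57 than in 129 in both genotypes, and Trip11 and Slc45a4 in KO alone. Slc45a4, which lies on chromosome 15, was higher by 0.29 in KO (SE 0.07; limma, adjusted p = 0.00740). In WT its difference of 0.19 was not called (SE 0.07; limma, adjusted p = 0.170). Tmem121 averaged 6.04 in C57 KO and 4.92 in 129 KO, a difference of 1.12 (SE 0.19; limma, adjusted p = 0.000418), and 6.03 in C57 WT and 4.90 in 129 WT, a difference of 1.13 (SE 0.20; limma, adjusted p = 0.000530). In Tmem121, 16 C57 arrays lay above every 129 array at 5.68 to 6.98. C57 KO array 2 at 4.71 and C57 WT array 28 at 5.16 lay within the 129 range. Tmem121 was named by its r with Galc, which fell from 0.74 to 0.37 without these arrays. Its low signals in them thus follow in part from how it was named and are no separate sign about these arrays.

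Trip11 averaged 7.42 in C57 KO and 7.07 in 129 KO, a difference of 0.35 (SE 0.09; limma, adjusted p = 0.0274), and 7.48 in C57 WT and 7.15 in 129 WT, a difference of 0.33 that was not called (SE 0.10; limma, adjusted p = 0.0627). For Trip11, 7 C57 arrays lay above the 129 range and 11 within it. Esyt2 averaged 6.05 in C57 KO and 6.34 in 129 KO (limma, adjusted p = 0.247), and 5.97 in C57 WT and 6.34 in 129 WT (limma, adjusted p = 0.108). H2aj, which lies on chromosome 6, averaged 8.88 in C57 KO, 8.87 in C57 WT, 8.95 in 129 KO and 8.93 in 129 WT, with 17 C57 arrays within the 129 range.

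Over all genes tested, 3.06% were called in C57 KO against 129 KO, or 400 genes, of which 282 were higher and 118 lower in C57. In C57 WT against 129 WT, 2.06% were called, or 269 genes, of which 142 were higher and 127 lower in C57. Chromosome 12 without Galc and Serpina3n had 13 higher and 7 lower genes among 472 in KO, or 4.24%, against 2.98% elsewhere, and 6 higher and 4 lower in WT, or 2.12%, against 2.03% elsewhere. These shares were not tested against each other. Of the 50 annotated neighbours of Galc, 25 before and 25 after it, 10 were tested, and likewise 10 of the 50 around Serpina3n. None of these neighbours was called in either strain comparison or in either KO comparison (0.107% and 0.00765% of all genes in the latter).

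**Figure D5:**
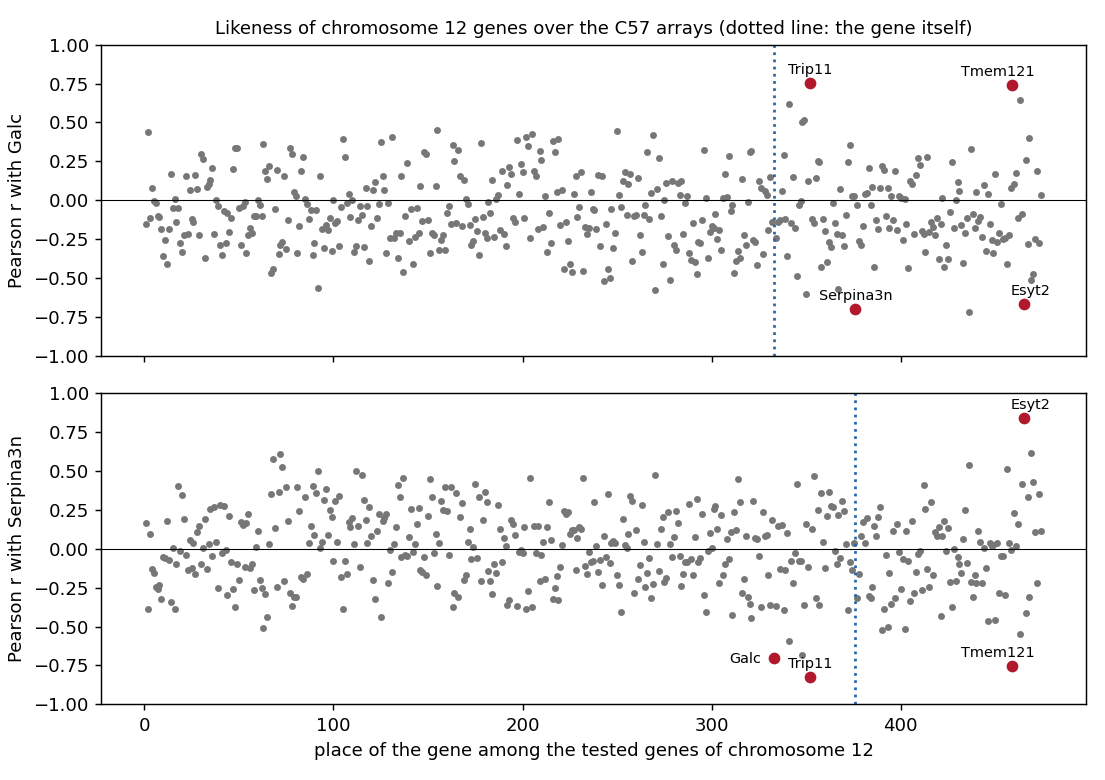
Pearson's r with Galc (upper panel) and with Serpina3n (lower panel) over the 18 C57 arrays for the tested genes of chromosome 12, in their order along the chromosome, with a dotted line at the place of the gene itself. Trip11 (0.75) and Tmem121 (0.74) stand highest with Galc, and Esyt2 (0.84) highest with Serpina3n.

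The other genes of galactolipid and lysosomal sphingolipid handling were listed beside Galc, and 21 of 23 were tested. None was called in C57 KO against 129 KO (3.06% of all genes), where their median difference was 0.02, and 0.01 over all genes. In C57 WT against 129 WT (2.06% of all genes), Glb1, the lysosomal beta-galactosidase, was higher by 0.21 (SE 0.06; limma, adjusted p = 0.0451), and Scarb2, a lysosomal membrane receptor, was lower at -0.18 (SE 0.05; limma, adjusted p = 0.0463), with a median of -0.01 for the list and -0.02 over all genes. Both calls were lost with each array centred on its median. None of the 21 was called between KO and WT in either strain (0.107% of all genes in C57 and 0.00765% in 129). Counts this low in so short a list are near the shares over all genes and are no result about the list, which holds for the other lists below as well.

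Psap, which encodes the precursor of the activators that lysosomal lipid enzymes need, gave a signal of 11.71 in C57 KO, 11.65 in C57 WT, 11.70 in 129 KO and 11.67 in 129 WT. Ugt8a, which makes the substrate of Galc, stood at 7.57 in C57 KO, 7.75 in C57 WT, 7.68 in 129 KO and 7.81 in 129 WT. Across the 18 C57 arrays the list's genes had r values with Galc between -0.54 for Glb1 and 0.25 for Gla, which encodes alpha-galactosidase.

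Markers of oligodendrocytes and myelin varied among the samples too. The mean over 15 tested markers was 7.80 ± 0.28 in C57 KO (7.37 to 8.20), 7.91 ± 0.21 in C57 WT (7.59 to 8.22), 7.65 ± 0.13 in 129 KO (7.47 to 7.87) and 7.72 ± 0.12 in 129 WT (7.48 to 7.86). Single markers reached an SD of 0.49 in C57 KO and 0.41 in C57 WT for Ermn, with 0.22 in 129 KO and 0.21 in 129 WT. None of the 15 was called in the strain comparisons (3.06% and 2.06% of all genes) or in the KO comparisons (0.107% and 0.00765%). Their median differences between the strains were 0.11 in KO and 0.19 in WT. Over the 18 C57 arrays the mean of the list had r = -0.25 with Galc and -0.06 with Serpina3n, and the part of oligodendrocyte content in the levels of either gene was not tested.

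Of the other clade A serpins, the family of Serpina3n, 12 of 25 listed genes had a probe set of their own, and only Serpina9 and Serpina11 passed the filter. Neither was called in the strain comparisons (3.06% and 2.06% of all genes) or in the KO comparisons (0.107% and 0.00765%). Serpina11 stood at 4.95 in C57 KO, 4.99 in C57 WT, 4.92 in 129 KO and 5.00 in 129 WT. Of the near relatives, Serpina3a averaged 2.64 in C57 KO, 2.58 in C57 WT, 2.67 in 129 KO and 2.66 in 129 WT, and Serpina3i 2.37, 2.45, 2.45 and 2.46 in the same order, both below the filter.

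Of serpins of other clades, 9 of 13 measured were tested. In the strain comparisons 0 were called (3.06% and 2.06% of all genes), and likewise in the KO comparisons (0.107% and 0.00765%). Serpini1, the neuronal inhibitor neuroserpin, stood at 9.78 in C57 KO, 9.83 in C57 WT, 9.98 in 129 KO and 9.93 in 129 WT. Of the proteases that Serpina3n or its relatives inhibit, Elane (neutrophil elastase), Ctsg (cathepsin G) and Gzmb (granzyme B) lay below the filter in all groups, with means of 2.71 to 3.34. Mmp9, a matrix metalloprotease, lay just above it at 3.69 in C57 KO, 3.67 in C57 WT, 3.81 in 129 KO and 3.73 in 129 WT, and was not called.

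Genes of reactive astrocytes and the acute phase, the setting in which Serpina3n is best known, had 18 of 26 listed members tested, with 0 called in the strain comparisons (3.06% and 2.06% of all genes) and in the KO comparisons (0.107% and 0.00765%). Their median difference was 0.10 in C57 KO against 129 KO and 0.03 in C57 WT against 129 WT. Gfap stood at 7.61 in C57 KO, 7.52 in C57 WT, 7.40 in 129 KO and 7.32 in 129 WT, so that its means in C57 lay above those in 129, without a call. Stat3 stood at 7.28 in C57 KO, 7.21 in C57 WT, 7.28 in 129 KO and 7.21 in 129 WT. The r values of the 18 genes with Serpina3n lay between -0.30 for Osmr, the oncostatin M receptor, and 0.45 for Cebpd, and the mean of the list had r = 0.03.

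Genes induced by glucocorticoids, hormones that also raise Serpina3n, were listed next. Of 16 listed genes 15 were tested. Per1, a clock gene that glucocorticoids induce, was higher in C57 KO than in 129 KO by 0.46 (SE 0.11; limma, adjusted p = 0.00936), and stood 0.39 above 129 WT in C57 WT without a call (SE 0.11; limma, adjusted p = 0.0507). The mean of the 16 genes was 7.15 ± 0.33 in C57 KO (6.92 to 8.00), 7.09 ± 0.11 in C57 WT, 7.02 ± 0.07 in 129 KO and 7.02 ± 0.07 in 129 WT. C57 KO array 17 stood apart at 8.00, and the other 8 C57 KO arrays had a mean of 7.05 and an SD of 0.09. That array was in the middle level of both Galc and Serpina3n, and the part of glucocorticoid response in their levels was not tested. The list's genes varied in C57 KO with an SD of 0.86 for Plin4, which was below the filter, 0.58 for Sgk1 and 0.44 for Fkbp5. Over the 18 C57 arrays the r values of the tested genes with Serpina3n lay between -0.31 for Per1 and 0.36 for Sgk1.

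Among markers of the cell types in the tissue, S100b, an astrocyte gene, was higher in C57 KO than in 129 KO by 0.25 (SE 0.05; limma, adjusted p = 0.00528). It was the only marker called in either strain comparison with the values as deposited, against 3.06% and 2.06% of all genes. The mean over 10 astrocyte markers was 9.57 in C57 KO, 9.54 in C57 WT, 9.44 in 129 KO and 9.48 in 129 WT, with r = -0.33 with Galc and 0.13 with Serpina3n. The mean over 10 microglia markers was 6.83 in C57 KO, 6.81 in C57 WT, 6.68 in 129 KO and 6.66 in 129 WT, with r = 0.28 with Galc and -0.29 with Serpina3n. The means of the neuron, vessel, choroid plexus and striatum markers had r values with both genes between -0.25 and 0.27.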

How the data were processed

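The deposited values are log2 probe set signals, already normalized between arrays by the authors (array medians 4.30 to 4.36). MAS5 and GCRMA are named per the submitters' processing notes, with no version or role given. Signals were used as deposited. Of 45037 probe sets other than 64 controls, 34945 had 1 symbol, 932 several and 9160 none, and only the first were used. The brightest probe set stood for a gene, and 13078 genes were tested, those with a mean at or above the 40th percentile of probe set means (3.6) in any group.

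The limma fit (version 3.58.1 under R 4.3.3) gave each group a mean and used all 37 arrays. Genes were called at a Benjamini-Hochberg adjusted p under 0.05. In data simulated for KO minus WT in C57 with 13078 genes, 93% of 200 shifts of 0.5 and 100% of those of 1 were recovered over genes of every spread. This does not carry over to Galc and Serpina3n, whose SE in that contrast was 0.40. Permutation tests enumerated 48620 splits in C57 and 92378 in 129 (Python 3.11.15, NumPy 2.4.6, SciPy 1.17.1, pandas 2.3.3, matplotlib 3.10.9). The number of arrays limits the precision. Array sets 1 and 2 were split at a step in Gprin3.

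The genes described, the lists and the naming rules were chosen with earlier results of these data known. By these rules the text names the 6 highest and 4 lowest correlations of each gene, called neighbours among 25 genes on each side, and up to 4 called genes of each list, with up to 4 more of highest level in 3 lists. Other genes shown for their level or spread or for a list's lowest and highest correlation, and the relatives of Serpina3n, were chosen after their values were seen. Alternatives were other normalizations, filters and probe set rules, limma options, the array sets, an actin covariate and each array left out. Leaving out C57 KO array 2 and C57 WT array 28 together was chosen after seeing the data.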

Additional observations from a re-analysis of the deposited data

Results flagged for a closer look

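In a group of 4 to 10 arrays, the gap of the lowest or highest array to its neighbour was set against Dixon's critical value for 95%. Of 16 groups of probe set values, 2 had such an array, where chance gives about 1 in 20. Both groups hold values by which Galc was chosen, so the count is not read against chance. Galc was at 2.60 in C57 KO array 2 and at 2.85 in C57 WT array 28 with probe set 1452907_at, far below the other arrays of their groups. Both arrays were also the highest C57 arrays for Serpina3n.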

How the results depend on the processing

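The 6 tests of Galc and Serpina3n gave 304 results under alternatives. Of these, 0 had a limma adjusted p under 0.05 (range 0.906 to 1.00), 275 kept their sign and 29 turned it. The results of Galc in 129 and for its difference of KO effects rest on signals below the filter in every 129 array. They say nothing about an effect of Wfs1 loss in 129. For Galc, KO minus WT in C57 was -0.0283 with array weights and -0.0246 in array set 1, and in 129 it was -0.0338 in array set 1. The difference of KO effects for Galc was 0.0100 with array set as a block, 0.00922 in set 1, 0.0364 in set 2, 0.0262 with the actin covariate and 0.0142 without C57 KO array 2 and C57 WT array 28. For Serpina3n, KO minus WT in C57 was 0.29 and the difference of KO effects 0.24 in array set 1, against -0.59 and -0.74 in array set 2.

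With 1 array left out, Galc ranged over -0.34 (without C57 WT array 28) to 0.43 (without C57 KO array 2) in C57 and over -0.39 to 0.38 for the difference of KO effects (without the same arrays), and Serpina3n over -0.37 (without C57 KO array 2) to 0.0574 (without C57 WT array 28) in C57. The other probe sets of Galc gave strain differences of -0.27 and -0.12 in KO and -0.24 and -0.0516 in WT, with SDs of 0.27 and 0.12 in C57 KO and 0.29 and 0.0988 in C57 WT. The SD of Galc was 0.50 in C57 KO in set 2, and in C57 WT it was 1.90 in set 1 and 0.60 in set 2. With C57 KO array 2 and C57 WT array 28 left out it was 0.56 in C57 KO and 0.62 in C57 WT.

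Of the listed genes, 2 were called in each strain comparison. In KO, 5 were with quantile normalization, and in WT 0 with median centring and 1 without those arrays. For these changes the cause was not tested. No paired analysis was possible because the groups share no sample numbers. A fit of only the groups compared gives no difference of KO effects.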
